A study of Mus musculus with 3 samples.

Results

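The let-7 family of microRNAs (miRNAs) was examined in exosomes, small membrane vesicles, released by mouse bone-marrow-derived macrophages. Its 10 members, chosen by name from the 1915 mature miRNAs in the tables, were the 9 guide strands mmu-let-7a-5p, mmu-let-7b-5p, mmu-let-7c-5p, mmu-let-7d-5p, mmu-let-7e-5p, mmu-let-7f-5p, mmu-let-7g-5p, mmu-let-7i-5p and mmu-miR-98-5p, and mmu-let-7d-3p, the opposite strand of the let-7d hairpin. The mouse prefix mmu is left out from here on. All 10 had counts in every library. The study had 1 group of 3 small RNA libraries (libraries 1, 2 and 3) from wild type C57BL/6 macrophages. Marrow cells of adult mice received M-CSF, the growth factor of macrophages, for 24 h, and vesicles were pelleted by ultracentrifugation from medium with exosome-free serum after 72 h of culture. The study set out to profile vesicle miRNAs, and no condition was compared with another. The labels do not tie the libraries to different cultures or animals, so SDs and p-values reflect differences among 3 preparations that could be purely technical.

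A miRNA hairpin yields a 5p and a 3p strand, and the guide strand loaded into an Argonaute protein pairs with messenger RNAs mainly through its seed, bases 2 to 8. The let-7 gene was found in Caenorhabditis elegans as a timer of development, and in mammals its guide strands repress growth regulators such as Hmga2, Lin28 and Ras genes, while LIN28 proteins block the maturation of let-7 hairpins. In macrophages, members of the family are known for tuning Toll-like receptor and cytokine responses.

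The sequences show why the 9 guide strands count as 1 family and let-7d-3p does not. All 10 were found in RefSeq (GRCm38.p6), and each has 22 bases. Capitals mark the seed.
let-7i-5p: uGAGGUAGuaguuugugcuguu
let-7g-5p: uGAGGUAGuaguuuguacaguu
let-7c-5p: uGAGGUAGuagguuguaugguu
let-7b-5p: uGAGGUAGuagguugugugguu
miR-98-5p: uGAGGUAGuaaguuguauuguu
let-7a-5p: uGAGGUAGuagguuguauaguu
let-7f-5p: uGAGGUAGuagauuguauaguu
let-7d-5p: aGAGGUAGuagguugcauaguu
let-7e-5p: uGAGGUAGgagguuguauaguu
let-7d-3p: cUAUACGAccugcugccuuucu
The seed GAGGUAG was common to the 9 guide strands, and no other miRNA in the sequence table had the seed of let-7d-3p. The guide strands differ only outside the seed. Of their 36 pairs, 4 differ at 1 base. Counted from the 5′ end, these are A19G from let-7a-5p to let-7c-5p, U9G from let-7a-5p to let-7e-5p, G12A from let-7a-5p to let-7f-5p and G17A from let-7b-5p to let-7c-5p. Reads with a sequencing error can therefore be counted under a neighbour's name, and the authors' treatment of such reads is not recorded in the labels or headers.

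Library 1 stood apart from the other libraries. On log2(CPM + 1) values of 472 miRNAs its Pearson r was 0.91 with library 2 and 0.89 with library 3, against 0.97 between libraries 2 and 3, as a description across miRNAs. CPM is the count per 1000000 miRNA counts of a library, and the libraries held 3008995, 2489984 and 3208617 such counts. Each library held at least 10 counts of each of the 7 myeloid markers examined, and their summed level was 7.13%, 34.5% and 30.02% of miRNA counts in libraries 1, 2 and 3. The inflammation-linked miR-21a-5p carried most of this difference, and the other 6 summed to 3.40%, 3.97% and 3.87%, mostly as miR-146a-5p. Of those 6, miR-155-5p was at 74.8 CPM in library 1, against 2388 and 829 CPM in libraries 2 and 3. In library 1, 5 of the 7 were below both other libraries, as were 27.5% of all miRNAs tested. They ranged from the blood-cell miRNA miR-142a-3p, at 42.9 CPM in library 1 against 1364 and 819 CPM, to miR-146a-5p, at 33401 CPM against 35012 and 36543 CPM, while miR-342-3p was highest in library 1. Levels of miR-142a-5p were 292, 818 and 390 CPM and of miR-223-3p 35.6, 52.6 and 33.0 CPM in libraries 1, 2 and 3. The 11 markers of other cell types summed to between 0.147% and 0.230%, mostly as the liver-linked miR-122-5p and miR-192-5p. In libraries 1, 2 and 3, miR-122-5p stood at 322, 548 and 1500 CPM and miR-192-5p at 1067, 480 and 469 CPM. Both were above every myeloid marker except miR-21a-5p and miR-146a-5p in library 1. In library 2 both were below miR-155-5p, miR-142a-3p and miR-142a-5p, and in library 3 miR-122-5p alone was above miR-155-5p and miR-142a-3p. Of the 11, 6 were highest in library 1 and 3 lowest, beside 60.3% and 27.5% of all miRNAs tested. Among the 6 was miR-145a-5p, with counts of 1, 0 and 1 in libraries 1, 2 and 3. The erythroid miR-486a-5p and miR-451a stood at 54.2 and 33.9 CPM in library 1, against 9.64 and 17.3 CPM in library 2 and 4.36 and 11.2 CPM in library 3, and miR-150-5p and miR-145a-5p had at most 1 count in a library. The part of such differences in the let-7 results was not tested.

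The let-7 guide strands together took 8.76% of miRNA counts in library 1 (Wilson 95% interval 8.73 to 8.80), 21.8% in library 2 (21.8 to 21.9) and 23.9% in library 3 (23.8 to 23.9). These intervals cover counting error only. The family thus held a smaller part of library 1 than of either other library, and its mean share was 18.2% ± 8.20 (SD, n = 3), or 22.9% without library 1. A share of counts cannot tell fewer vesicles with a miRNA from fewer copies per vesicle.

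A single member, let-7i-5p, was the most abundant of the family in every library. In human bile duct cells let-7i is known to repress Toll-like receptor TLR4. Its level was 55602, 74235 and 103787 CPM in libraries 1, 2 and 3, which placed it at rank 4 among all miRNAs in library 1 and at rank 2 in libraries 2 and 3. The level in library 1 was below both others, as for 27.5% of all miRNAs tested, and the gap was small beside that of several relatives. Within the guide strands let-7i-5p held 63.4% of counts in library 1 (Wilson 95% interval 63.3 to 63.6), 33.998% in library 2 (33.9 to 34.1) and 43.5% in library 3 (43.3 to 43.6), a mean of 46.96% ± 15.03 (SD, n = 3).

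Second by the mean was let-7f-5p, which in mouse macrophages is known to repress A20, a brake on NF-κB. It stood at 4677 CPM in library 1, far below its 72470 and 66530 CPM in libraries 2 and 3. Its share of the guide strands was 5.34%, 33.2% and 27.9% in libraries 1, 2 and 3 (22.1% ± 14.8, SD, n = 3). In library 2 it almost equalled let-7i-5p, with a log2 ratio of let-7i-5p to let-7f-5p of 0.03, whereas in library 1 that log2 ratio was 3.57.

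**Figure D1:**
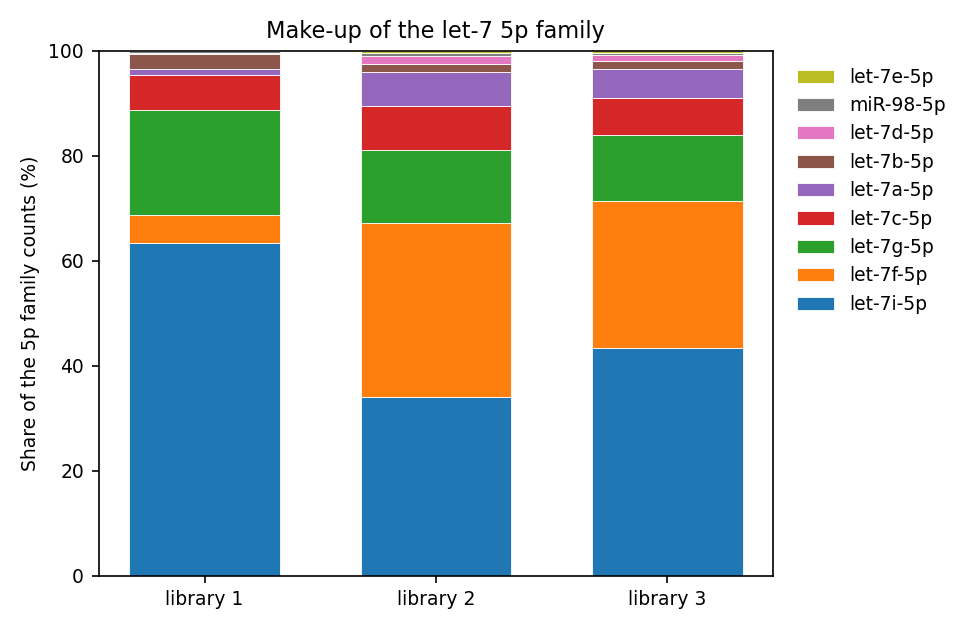
Share (%) of each guide strand in the summed counts of the 9 let-7 5p strands, as stacked bars for libraries 1, 2 and 3. The let-7i-5p part is largest in library 1 at 63.4%, and let-7f-5p takes 5.34% there, against 33.2% and 27.9% in libraries 2 and 3.

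The next guide strands were let-7g-5p and let-7c-5p. The level of let-7g-5p was 17418, 30453 and 30370 CPM in libraries 1, 2 and 3, so that libraries 2 and 3 nearly coincided. Overexpression of let-7c is known to favour an alternatively activated state in mouse macrophages, and let-7c-5p stood at 5819, 18255 and 16847 CPM. Their shares of the family were among the steadier ones, at 19.9%, 13.9% and 12.7% for let-7g-5p and 6.64%, 8.36% and 7.05% for let-7c-5p.

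In the middle of the family, let-7a-5p and let-7b-5p changed places between libraries. The level of let-7a-5p was 1054, 14112.5 and 13002 CPM, and that of let-7b-5p 2530, 3493 and 3469 CPM, in libraries 1, 2 and 3. In human cells let-7a is known to repress interleukin-6, and extracellular let-7b is known in mouse to activate the receptor TLR7. In library 1 let-7b-5p was thus above let-7a-5p, and in the other libraries it was below. By its coefficient of variation of 17.4% let-7b-5p was the steadiest of the 10 members across libraries.

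The lowest guide strands were let-7d-5p, miR-98-5p and let-7e-5p. In libraries 1, 2 and 3 let-7d-5p stood at 241, 3347 and 2910 CPM, and miR-98-5p, known in mouse macrophages to repress interleukin-10, at 293, 1158 and 1001 CPM. For let-7e-5p, which Akt1 signalling is known to raise in mouse macrophages, the level was 14.3, 826 and 907 CPM, from only 43 counts in library 1 against 2057 and 2909 in libraries 2 and 3. Each of these was lowest in library 1. Of the guide strand counts let-7d-5p took 0.275%, 1.53% and 1.22% in libraries 1, 2 and 3, miR-98-5p 0.334%, 0.530% and 0.419%, and let-7e-5p 0.0163%, 0.378% and 0.380%.

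**Figure D2:**
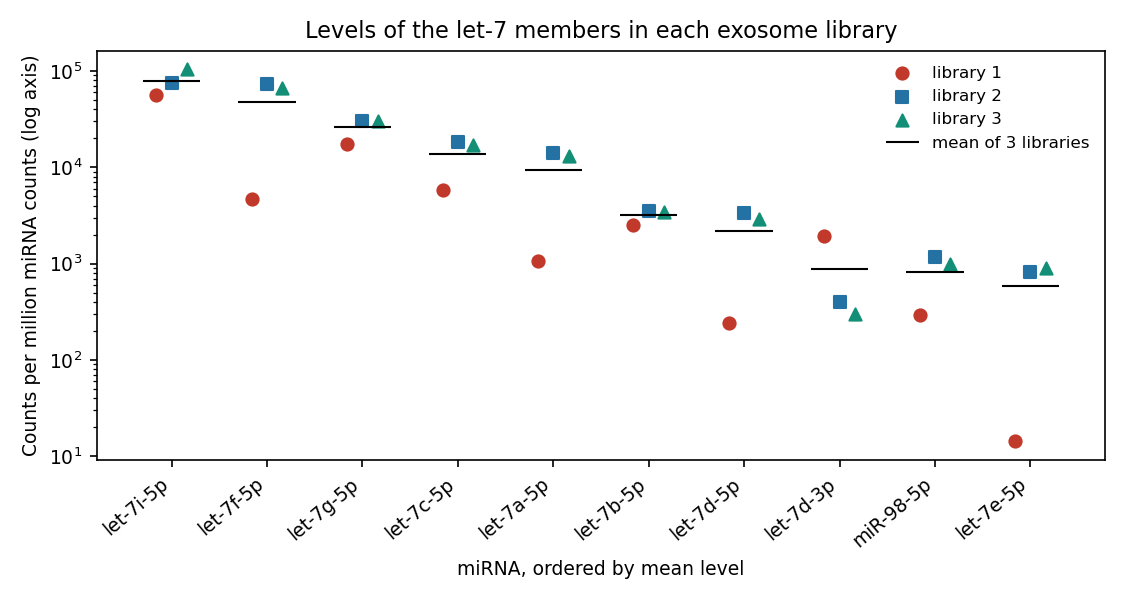
Level of each member in CPM (log axis), with 1 point for each library and a bar at the mean of the 3 libraries. The library 1 points of let-7f-5p, let-7a-5p, let-7d-5p and let-7e-5p lie far below those of libraries 2 and 3, while let-7d-3p is higher in library 1, at 1946 CPM against 404 and 300.1 CPM.

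The order of levels by the mean was let-7i-5p, let-7f-5p, let-7g-5p, let-7c-5p, let-7a-5p, let-7b-5p, let-7d-5p, let-7d-3p, miR-98-5p and let-7e-5p. Of the 9 pairs of neighbours in this order, 5 kept their order in all 3 libraries. The order was set by the mean of the same libraries, so a kept order does not show a difference beyond their spread. In library 2 the log2 ratio was only 0.03 for let-7i-5p to let-7f-5p and 0.06 for let-7b-5p to let-7d-5p. The other pairs did not differ beyond the spread between libraries. These were let-7f-5p with let-7g-5p, let-7a-5p with let-7b-5p, let-7d-5p with let-7d-3p and let-7d-3p with miR-98-5p, and each of them turned between library 1 and libraries 2 and 3. In libraries 2 and 3 alone all 45 pairs of members had the same order. With 3 libraries an exact two-sided sign-flip permutation test cannot go below p = 0.25, so no test of the order was made.

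The guide strands were not equally low in library 1. Their log2 ratio of library 1 to the mean of libraries 2 and 3 ran from -5.92 for let-7e-5p to -0.46 for let-7b-5p, and all 9 were below both other libraries, as were 27.5% of the 353 miRNAs whose counts over the libraries summed to 30 or more. The median log2 ratio was -1.88 over the 9 guide strands and 0.86 over the 353 miRNAs. Relative to that median, let-7e-5p stood at -6.78 and let-7b-5p at -1.32 on the log2 scale. Scaling with TMM factors, which centre libraries on miRNAs of typical change, moved the median to 0.16 and left all 9 guide strands below 0, from -6.63 to -1.16.

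The 4 guide strands with the lowest ratios end alike. All of let-7a-5p, let-7d-5p, let-7e-5p and let-7f-5p end in AUAGUU and had log2 ratios between -5.92 and -3.69. The 5 strands with other ends, namely let-7b-5p, let-7c-5p, let-7g-5p, let-7i-5p and miR-98-5p, had log2 ratios between -1.88 and -0.46. The AUAGUU set was named after its values were seen, and no test was made of it. Its summed level was 5986 CPM in library 1, against 90756 and 83349 CPM in libraries 2 and 3, or 6.83%, 41.6% and 34.9% of the guide strand counts. The summed level of the 5 others was 81661 CPM in library 1, against 127595 and 155474 CPM in libraries 2 and 3. The set was not uniform, since let-7e-5p, at -5.92, lay further from let-7f-5p, at -3.89, than let-7a-5p, at -3.69, lay from miR-98-5p, at -1.88. A single base separates let-7a-5p from let-7c-5p (A19G), at -1.59. A single base outside the end, U9G, separates let-7a-5p from let-7e-5p, at -5.92. GC content was 31.8% to 40.9% in the AUAGUU set and 31.8% to 45.5% in the others. No other miRNA that had a sequence and reached 30 counts in sum ended in AUAGUU. All guide strands end in GUU, and the 6 non-members with this end had a median log2 ratio of -0.10. The median was 0.83 over the 320 tested miRNAs with a sequence. In the AUAGUU set, let-7a-5p, let-7d-5p and let-7f-5p also have hairpins in the same cluster on chromosome 13, while let-7e lies on chromosome 17. Shared end, shared locus and GC content were not tested as causes, and shared end and shared locus were not tested apart.

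**Figure D3:**
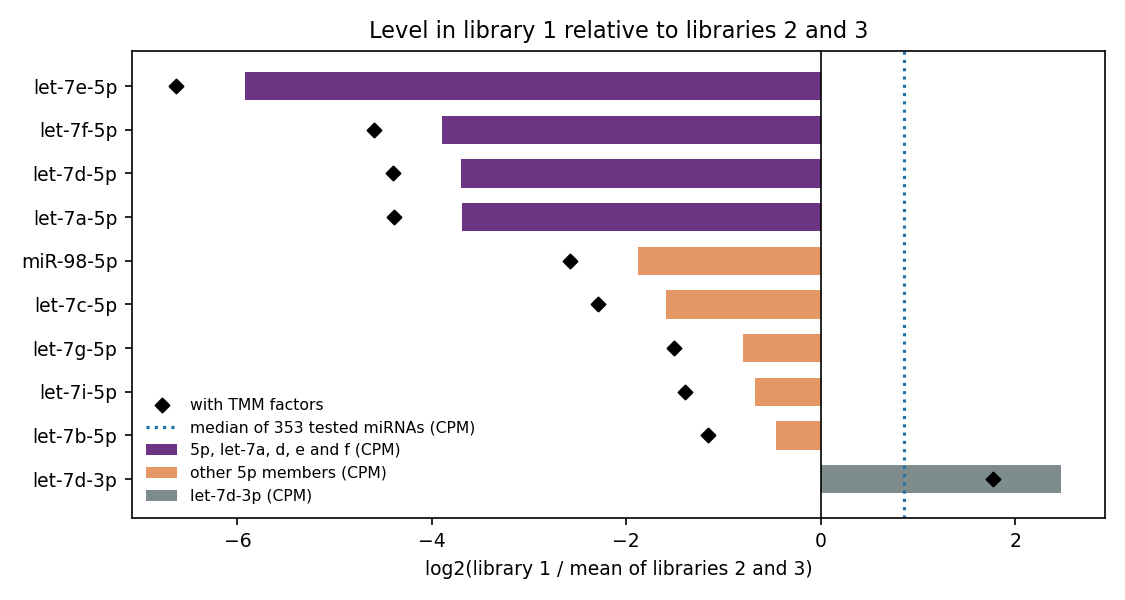
Log2 ratio of library 1 to the mean of libraries 2 and 3 for each member, as bars from CPM and diamonds with TMM factors, with the median of the tested miRNAs (0.86 from CPM) as a dotted line. The bars of let-7e-5p, let-7f-5p, let-7d-5p and let-7a-5p reach -3.69 or lower, those of the other guide strands stay between -1.88 and -0.46, and let-7d-3p lies on the positive side at 2.47.

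Each member was also set against counting error. In a chi-square test of its 3 counts against the totals of the libraries (Benjamini-Hochberg over all miRNAs tested), all 10 members differed among the libraries, but so did 90.1% of the 353 miRNAs. Between libraries 2 and 3 alone, 8 of the 10 members differed, beside 61.5% of the 288 miRNAs tested. The exceptions were let-7b-5p (adjusted p = 0.673) and let-7g-5p (adjusted p = 0.628), whose ratios of library 3 to library 2 were 0.993 and 0.997. The other guide strands lay between 0.864 for miR-98-5p and 1.10 for let-7e-5p, except let-7i-5p, whose ratio was 1.40. This test compares libraries and not conditions.

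The let-7d hairpin carried its counts on opposite arms in different libraries. The hairpin, shown here with let-7d-5p and then let-7d-3p in capitals, lies on chromosome 13 at 48536012 to 48536114 (GRCm38.p6, minus strand), in an exon of the noncoding gene 6720427I07Rik (GENCODE M21).
let-7d hairpin: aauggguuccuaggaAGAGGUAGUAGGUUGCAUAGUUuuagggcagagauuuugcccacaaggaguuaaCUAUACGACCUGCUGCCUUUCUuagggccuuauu
In library 1 there were 5855 counts of let-7d-3p against 726 of let-7d-5p. In library 2 there were 1006 of let-7d-3p against 8335 of let-7d-5p, and in library 3 there were 963 against 9338. The 3p arm was thus the major one in library 1 alone. It made up 89.0% of the counts of both arms there (Wilson 95% interval 88.2 to 89.7), and 10.8% (10.2 to 11.4) and 9.35% (8.80 to 9.93) in libraries 2 and 3. As a log2 ratio of let-7d-3p to let-7d-5p these are 3.01, -3.05 and -3.28, a mean of -1.11 ± 3.57 (SD, n = 3). Both arms took part in the shift: let-7d-3p was 5.53 times higher in library 1 than in the mean of libraries 2 and 3, and let-7d-5p was 12.97 times lower. With TMM factors these became 3.42 times higher and 21.03 times lower, and with DESeq2 size factors 3.12 times higher and 23.1 times lower. The ratio of arms within a library does not depend on how libraries are scaled.

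Across the 3 libraries the arm difference of let-7d did not pass the test. In edgeR's quasi-likelihood test with library and arm as terms the log2 ratio of let-7d-3p to let-7d-5p was -1.71 (SE 1.14, adjusted p = 0.158), while 80.3% of the 157 hairpins tested had an arm difference at an adjusted p below 0.05, with 3p higher in 38.9% and 5p higher in 41.4%. Without library 1 it was -3.16 (adjusted p = 0.000314), with 5p higher, as in 45.1% of the hairpins tested there. Hairpins of let-7a, let-7c and let-7f were not tested, because their 3p names carry a locus number that their 5p names lack. The other let-7 hairpins tested, let-7b, let-7e, let-7g, let-7i and miR-98, all had 5p higher in the edgeR test, beside 41.4% of all hairpins. Their fitted log2 ratios of 3p to 5p ran from -12.30 for let-7g (adjusted p = 4.58e-22) to -4.81 for miR-98 (adjusted p = 2.46e-05). The call of let-7e, at -6.32 (adjusted p = 3.43e-05), was lost without library 2 (adjusted p = 0.109) and without library 3 (adjusted p = 0.0654).

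The let-7d hairpin was not alone in its shift towards 3p in library 1. The log2 ratio of 3p to 5p was higher in library 1 than in the mean of libraries 2 and 3 for 97 of the 157 hairpins, with a median shift of 0.88. The shift of let-7d was 6.17 and ranked second after let-7e, and it ranked first among the 95 hairpins with at least 100 counts of both arms together in every library. Of the 157 hairpins, 7 had 3p as the major arm in library 1 and 5p in libraries 2 and 3. Besides let-7d these were miR-9, miR-18a, miR-130b, miR-212, miR-330 and miR-339, named here after their values were seen. The opposite switch, with 5p as the major arm in library 1 and 3p in libraries 2 and 3, was seen in 3 hairpins, miR-142a, miR-350 and miR-7091.

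**Figure D4:**
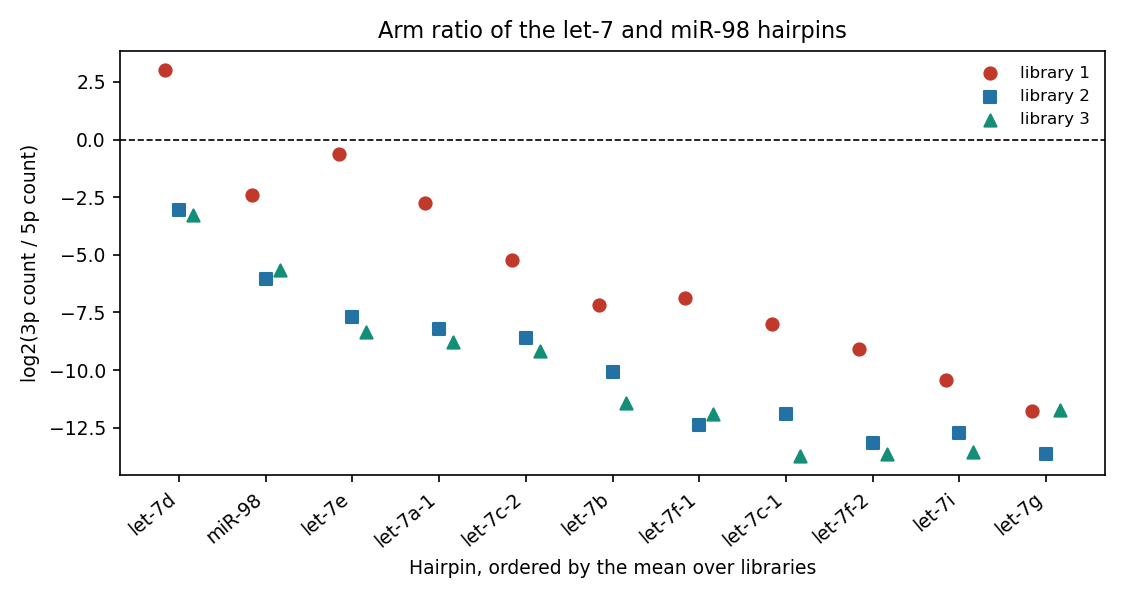
Log2 ratio of the 3p count to the 5p count for 11 let-7 and miR-98 hairpins in each library, with equal arms at the dashed line. For let-7a-1, let-7c-1, let-7c-2, let-7f-1 and let-7f-2 the 5p count is pooled over loci. The same 3p counts stand for let-7a-1 and let-7c-2. Only let-7d in library 1 lies above the line, at 3.01, and let-7g is the 1 hairpin whose library 1 point is not above both others.

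Apart from let-7d-3p, the passenger strands, the 3p partners of the guides, were scarce. Of 12 in the tables, let-7d-3p among them, let-7a-2-3p had no count in any library, which allows up to 0.997, 1.20 and 0.935 CPM (3 counts), and 7 names reached 10 counts in all 3 libraries. The strand let-7c-2-3p has the same sequence as let-7a-1-3p, and both were listed with 466, 118 and 94 counts, so that 1 set of reads stands under both names. With that set counted for 1 name only, let-7d-3p made up 84.6%, 78.3% and 76.0% of all passenger counts in libraries 1, 2 and 3.

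Of the 10 distinct passenger strands with 30 or more counts in sum, 9 were higher in library 1 than in both other libraries, as were 60.3% of the 353 miRNAs tested. The exception was let-7g-3p, with 15, 6 and 29 counts in libraries 1, 2 and 3. In the chi-square test 9 of the 10 differed among libraries, beside 90.1% of all miRNAs, and let-7f-2-3p did not pass. The level of let-7a-1-3p was 155, 47.4 and 29.3 CPM in libraries 1, 2 and 3, that of miR-98-3p 55.2, 17.7 and 19.6 CPM, and that of let-7i-3p 40.5, 10.8 and 8.73 CPM. Without let-7d, passenger strands made up 0.403%, 0.0521% and 0.0401% of the counts of both arms. For let-7e the 3p arm reached 39.4% (Wilson 95% interval 28.9 to 51.1) in library 1, from 28 counts of let-7e-3p against 43 of let-7e-5p, and 0.484% and 0.308% in libraries 2 and 3.

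Count ratios between guide strands of the same gene cluster were steady across libraries in some cases and not in others. The let-7d hairpin starts 1817 bases from that of let-7f-1, which starts 350 bases from that of let-7a-1, all in exons of 6720427I07Rik. Counts of let-7f-5p were 4.44, 5.14 and 5.12 times those of let-7a-5p in libraries 1, 2 and 3, and counts of let-7a-5p were 4.37, 4.22 and 4.47 times those of let-7d-5p. The proportions of these guide strands were thus nearly the same in all libraries, while their levels in CPM were 12.9 to 14.9 times lower in library 1 than in the mean of libraries 2 and 3, or 20.9 to 24.1 times lower with TMM factors and 22.9 to 26.5 times lower with DESeq2 size factors. The let-7a-5p sequence is also in the let-7a-2 hairpin on chromosome 9 and let-7f-5p in the let-7f-2 hairpin on chromosome X, and neither count can be split between its loci.

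Count ratios of other neighbours were less steady. On chromosome X, let-7f-2 (151912346 to 151912428) and miR-98 (151913214 to 151913321) lie in an intron of Huwe1, a ubiquitin ligase gene. Counts of let-7f-5p were 15.97, 62.6 and 66.5 times those of miR-98-5p in libraries 1, 2 and 3. On chromosome 15, let-7c-2 (85706603 to 85706697) and let-7b (85707319 to 85707403) lie in exons of the noncoding gene Lncppara, and counts of let-7c-5p were 2.30, 5.23 and 4.86 times those of let-7b-5p. In both pairs library 1 had the lowest ratio. However, let-7f-5p is also made on chromosome 13 and let-7c-5p on chromosome 16. These ratios therefore pool loci and cannot show whether the strands of 1 cluster differ. The let-7g hairpin lies alone in an intron of Wdr82 on chromosome 9 (106178840 to 106178927) and let-7i in an exon of the pseudogene D630033A02Rik on chromosome 10 (122985640 to 122985724). The unlinked let-7i-5p and let-7g-5p had a count ratio of 3.19, 2.44 and 3.42 in libraries 1, 2 and 3, the highest 1.40 times the lowest.

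Some let-7 genes stand in polycistrons with miR-99, miR-100 and miR-125 genes, whose products have other seeds. All 5 of these partners differed among libraries in the chi-square test, beside 90.1% of all miRNAs, and 4 of the 5 were highest in library 1, as were 60.3% of all miRNAs tested. The let-7c-1 hairpin on chromosome 16 starts 721 bases from that of miR-99a in an intron of Mir99ahg. Counts of miR-99a-5p were 29.5, 3.76 and 3.01 times those of let-7c-5p in libraries 1, 2 and 3. The let-7e hairpin on chromosome 17 (17830352 to 17830444), in an intron of Spaca6, starts 460 bases from that of miR-125a. Its other partner miR-99b-5p was nearly level in CPM, at 4616, 5065 and 5352 CPM. On this scale the median log2 ratio of library 1 to the mean of libraries 2 and 3 was 0.86 over the 353 miRNAs tested. Counts of miR-99b-5p were 323, 6.13 and 5.90 times those of let-7e-5p. Counts of let-7e-5p were 0.0139, 0.862 and 2.01 times those of miR-125a-5p, so here libraries 2 and 3 also differed. Counts of let-7a-5p were 1.12, 30.1 and 36.0 times those of miR-100-5p. The let-7 strand was thus lowest relative to its partner in library 1 in each of these polycistrons, although let-7a-5p and let-7c-5p are also made elsewhere, on chromosomes 13 and 15. All 9 guide strands were lowest in library 1, so their ratio to any miRNA not as low there would also be lowest. The ratios therefore show nothing particular to polycistrons.

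Some further miRNAs carry a let-7 name or seed. Counts of let-7k were 3, 3 and 5 and those of miR-1961 were 2, 3 and 0 in libraries 1, 2 and 3, and both have the seed of the family. The level of let-7j, with a different seed, was 19.6, 26.5 and 26.2 CPM, and it did not pass the chi-square test. The 9 guide strands were thus nearly the whole of the counts with this seed.

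The miRNAs with the most similar pattern over the 3 libraries were sought among 124 others with a mean of at least 100 CPM, by the Euclidean distance of log2(CPM + 1) values centred on their mean. Nearest to the summed guide strands were miR-30b-5p (distance 0.40), miR-221-5p (0.43), miR-330-5p (0.47), miR-26b-5p (0.56) and miR-677-5p (0.56), where the median distance was 1.90. For example, miR-30b-5p stood at 260, 747 and 1051 CPM. Nearest to let-7d-3p were miR-25-3p (0.15), miR-345-3p (0.20) and miR-125b-2-3p (0.24), where the median was 1.46. The level of miR-25-3p was 31984, 6108 and 5257 CPM. With 3 libraries these distances are a description only, and they follow mainly the gap between library 1 and the others.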

How the data were processed

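Per the labels' protocols, TRIzol-extracted exosome RNA was ligated to adapters (NEBNext small RNA kit), amplified and gel-selected, then read as single-end 50-base reads. The submitters' processing notes name bcl2fastq, BWA and mm10 without versions. Trimming, mismatch limits, the miRNA release and the handling of multi-matching reads are not given in the sources used here. No molecular identifiers are mentioned, so amplified copies are counted, and adapter ligation can favour some end sequences.

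The authors deposited, for each library, a whole-number count per mature miRNA and a normalized value. This RPM value, as worked out from the deposited columns, divides by 14047692 in library 1, 13995845 in library 2 and 14002577 in library 3, times 1000000, and miRNA counts are 21.4%, 17.8% and 22.9% of those numbers. Counts were therefore scaled to the miRNA total (CPM), and RPM served as an alternative.

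Groups came from the sample labels. The arm test was edgeR's quasi-likelihood test on both arms of hairpins matched by name, with terms for library and arm, miRNA totals as library sizes and a minimum of 60 counts in sum. Its SE is the log2 ratio divided by the square root of F. The chi-square test used a summed count of at least 30. Both were adjusted by Benjamini-Hochberg over all features tested, with a threshold of 0.05, and were tested on simulated data. Simulated arm counts were drawn around a common mean with a fixed dispersion. They did not model a swing between libraries such as that of let-7d. Alternatives were other filters, TMM factors, DESeq2, RPM, no library term and leaving out each library. Named miRNAs were all members, the passenger strands, the polycistron partners, the 5 and 3 miRNAs nearest in pattern, and markers from a list. Further names were chosen after their values or sequences were seen: miR-1961 and the hairpins whose major arm differed between libraries. Members and lists were chosen with earlier results of these data known. Software was Python 3.11.15, SciPy 1.17.1, R 4.3.3, edgeR 4.0.16 and DESeq2 1.42.0.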

Additional observations from a re-analysis of the deposited data

How the results depend on the processing

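No paired analysis between groups was possible because there was 1 group, while the arm test compares arms within libraries. Library 1 decided the let-7d arm result: leaving out each library in turn, the log2 ratio of let-7d-3p to let-7d-5p ranged from -3.16 without library 1 (adjusted p = 0.000314) to -0.021 without library 3 (adjusted p = 0.991). With no library term, other count filters, TMM factors or DESeq2 it lay between -1.71 and -1.29, with an adjusted p between 0.105 and 0.440. Hairpins with an arm difference numbered 126, and between 99 and 122 without 1 library. The family share was 18.2% of miRNA counts and 3.74% of the authors' RPM denominator, which holds more than miRNAs. The log2 ratio of library 1 to the mean of libraries 2 and 3 for the family sum was -1.38, and -2.22 with DESeq2 size factors. The chi-square test called 318 miRNAs, 168 at a summed count of at least 300, where fewer were tested, and between 177 and 284 without 1 library. No result changed direction under the alternatives run. The 3 libraries, their unstated origin and near-identical sequences limit what can be read from single members, and depth limits let-7e-5p and most passenger strands in single libraries.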
